A study of Mus musculus with 6 samples.

Results

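The REST repressor, its cofactors Rcor1 and Sin3a, and the small C-terminal domain phosphatases Ctdsp1, Ctdsp2 and Ctdspl were measured in the retina of neonatal mice. The members were all probe sets, of any suffix, that the probe annotation pairs with 1 of these 6 gene symbols, which gave 14 of the 22690 probe sets on the array, and 6 of the 12394 genes named by them. Rest (Entrez gene 19712), Rcor1 (217864), Sin3a (20466) and Ctdsp2 (52468) each had 3 probe sets, and Ctdsp1 (227292) and Ctdspl (69274) had 1 each. Retinal RNA came from 6 mice at postnatal day 4 (P4) on a mixed C57/129 background, 3 wildtype and 3 Nhlh2 knockout, each hybridised to its own Affymetrix mouse 430A array. Each knockout mouse had a wildtype littermate with the same replicate number, so that there were 3 littermate pairs. Nhlh2 encodes a basic helix-loop-helix transcription factor of developing neurons. How the allele was made is not given in the sources used here, and no probe set named Nhlh2 was in the annotation, so the targeted gene was not analysed here. Whole retinas were used, so fewer cells of a type and less RNA per cell cannot be told apart.

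REST is a zinc finger protein that binds the RE1 element near neuronal genes and keeps them silent outside neurons and in progenitors. It recruits Sin3a, a scaffold for histone deacetylases, at its amino-terminal repression domain, and Rcor1 (CoREST), which brings in the histone demethylase Kdm1a and further deacetylases, at its carboxy-terminal one. The Ctdsp phosphatases remove phosphate from the tail of RNA polymerase II and are recruited to the same genes. In developing neurons miR-124 targets the Ctdsp1 message, and miR-26 is processed from transcripts of the Ctdsp genes.

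The miR-26 hairpins are shown because each Ctdsp gene carries 1 of them. In RefSeq annotation of GRCm38.p6 the hairpin of Mir26b lies inside the span of Ctdsp1 (chr1:74394310-74394394, plus strand), that of Mir26a-2 inside Ctdsp2 (chr10:126995530-126995613, plus strand) and that of Mir26a-1 inside Ctdspl (chr9:119031796-119031885, plus strand). The sequences are from RefSeq, 5′ to 3′, and capitals mark the mature 5p arm.
Mir26b: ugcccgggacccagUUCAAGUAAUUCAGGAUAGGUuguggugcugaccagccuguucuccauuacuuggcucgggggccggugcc
Mir26a-2: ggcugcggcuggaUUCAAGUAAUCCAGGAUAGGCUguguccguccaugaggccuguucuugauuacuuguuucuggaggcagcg
Mir26a-1: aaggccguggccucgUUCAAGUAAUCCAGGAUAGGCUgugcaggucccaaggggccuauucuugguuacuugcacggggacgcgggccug

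The mature 5p miRNAs are given with the seed, bases 2 to 8, in capitals. The hairpins of Ctdsp2 and Ctdspl give the same mature sequence.
miR-26b-5p: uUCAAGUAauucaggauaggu
miR-26a-5p: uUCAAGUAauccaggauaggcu
miR-26a-5p and miR-26b-5p shared the seed and differed by C11U and C21U, with miR-26a-5p as the first base and positions counted from 1 at the 5′ end. miR-26a-5p is also 1 base longer at the 3′ end (22 bases against 21). No other mature name in the RefSeq table had this seed. The array measures the host messages, not the miRNAs.

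Ctdsp2 has 2 start windows in RefSeq, and the second one holds the Mir26a-2 hairpin. This window (chr10:126995363-126995662, plus strand, GRCm38.p6) runs from 250 bases before to 50 after the annotated start, and capitals mark the hairpin at bases 168 to 251. The hairpin begins at -83 from the annotated start and ends at it, so that nearly all of it lies upstream of this start.
Ctdsp2 second start: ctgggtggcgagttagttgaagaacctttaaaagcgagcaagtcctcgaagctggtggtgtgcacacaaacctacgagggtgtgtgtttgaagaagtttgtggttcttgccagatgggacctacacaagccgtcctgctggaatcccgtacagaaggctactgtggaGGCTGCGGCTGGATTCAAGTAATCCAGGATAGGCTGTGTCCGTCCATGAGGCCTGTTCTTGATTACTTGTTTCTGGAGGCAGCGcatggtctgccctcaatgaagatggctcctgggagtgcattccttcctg
The window held 9 CG dinucleotides in 300 bases, against 25 in the window of the other Ctdsp2 start (chr10:126978467-126978766) and a median of 7 over all 32851 windows. Ctdsp1 had 34 (chr1:74391359-74391658), Ctdspl 43 (chr9:118926286-118926585) and Rcor1 31 (chr12:111039117-111039416). The windows of Sin3a had 14 and 25 (chr9:57071790-57072089 and chr9:57076126-57076425). The share of all windows with fewer CG dinucleotides was 54.2% for the second Ctdsp2 start and 97.4% for Ctdspl. These counts describe the sequence and say nothing of transcription.

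The arrays were not on a common scale, and a pair of them stood apart. The median signal was 57.0 to 95.6 in the wildtype arrays and 68.5, 9.0 and 51.4 in knockout 1, 2 and 3. In knockout 2 the signal of the 3′ over the 5′ control probe set was 274 for Actb and 15.6 for Gapdh, against 1.38 to 1.56 and 0.698 to 0.838 on the other 5 arrays. In wildtype 1 the lens crystallin Cryaa had a signal of 2566.9, against 1.2 to 3.9 elsewhere. The summed normalised signal of the 10 lens markers measured was 100.1 to 6868 in wildtype and 89.9 to 332.7 in knockout arrays. Each marker gene was read from its probe set with the highest mean normalised value over the 6 arrays, which raises the counts that follow. Retinal markers were present, since 8 of 9 photoreceptor, 8 of 9 progenitor and 9 of 10 amacrine and ganglion cell markers were above the median of all 3 wildtype arrays. Fewer markers of Mueller glia and astrocytes (4 of 8), endothelium and pericytes (4 of 11), microglia (3 of 9) and erythrocytes (0 of 2) were so, and 5 of 6 for the pigment epithelium. The part of these signals in the members' values was not tested, and the differences between the genotypes are also given without knockout 2.

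In the wildtype retina at least 1 probe set of every member gene except Ctdspl was above the median of all 3 arrays. This held for 9 of the 14 member probe sets, against 45.4% of all 22626 probe sets that are not controls. With the 75th percentile as the limit it held for 3 of 14, of which 2 were of Rcor1 and 1 of Ctdsp2. Values below are first the signal as deposited, in arbitrary units, and then the quantile-normalised log2(signal + 1), which puts the 6 arrays on 1 scale. The suffix _s_at marks probe sets whose probes can match several transcripts. Signals of different probe sets depend on their probes and are not set against each other as amounts of RNA.

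Rest was seen on 1 of its 3 probe sets. On 1425565_at the signal was 150.4, 215.4 and 233.4 in wildtype 1, 2 and 3 (199.7 ± 43.7, SD, n = 3) and 120.5, 55.5 and 176.3 in knockout 1, 2 and 3. It lay between the 62.9th and 76.9th percentile of the wildtype arrays. The other probe sets were dim, at the 3.5th to 26.7th percentile for 1425564_at and the 10.8th to 29.8th for 1425566_at over the 6 arrays. The signal of 1425564_at was 1.3, 3.9 and 13.3 in wildtype and 1.4, 0.7 and 3.1 in knockout, and that of 1425566_at was 3.7, 10.7 and 4.3 in wildtype and 13.2, 3.2 and 4.2 in knockout. Neither exceeded the array's median on any of the 6 arrays, so that the Rest results rest on a single probe set.

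Rcor1, the CoREST scaffold, was above the median of all 3 wildtype arrays on each of its probe sets. On 1437545_at the signal was 394.9, 381.0 and 417.5 in wildtype (397.8 ± 18.4, SD, n = 3) and 316.6, 33.9 and 392.7 in knockout. On 1454932_at it was 182.3, 198.3 and 177.2 (185.9 ± 11.01, SD, n = 3) against 143.5, 9.2 and 158.7. On 1434336_s_at it was 323.2, 392.9 and 218.0 (311.4 ± 88.1, SD, n = 3) against 288.2, 8.8 and 233.2. Knockout 2 was the lowest array on all 3 before normalisation. On the normalised log2 scale the SD over the wildtype mice was 0.37, 0.24 and 0.13 on 1437545_at, 1454932_at and 1434336_s_at.

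Sin3a, the deacetylase scaffold, was likewise above the median of all 3 wildtype arrays on each of its probe sets. The signal of 1419101_at was 171.5, 217.2 and 143.7 in wildtype (177.5 ± 37.1, SD, n = 3) and 152.6, 1.0 and 179.0 in knockout. That of 1419102_at was 220.2, 191.9 and 113.9 (175.3 ± 55.1, SD, n = 3) against 159.3, 109.7 and 107.4. That of 1449343_s_at was 227.3, 276.9 and 224.2 (242.8 ± 29.6, SD, n = 3) against 218.7, 16.7 and 241.8. After normalisation knockout 2 was the lowest of the 6 arrays on 1419101_at, at 2.31, and the highest on 1419102_at, at 9.31.

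Ctdsp1, a phosphatase of the RNA polymerase II tail, had 1 probe set, 1452055_at. Its signal was 190.2, 228.9 and 186.4 in wildtype (201.8 ± 23.5, SD, n = 3) and 142.1, 46.3 and 226.6 in knockout. It was above the median of all 6 arrays, and the groups overlapped. Ctdspl, which also acts on the retinoblastoma protein, had 1 probe set, 1422510_at, near the middle of each array. Its signal was 48.3, 65.9 and 57.0 in wildtype (57.1 ± 8.80, SD, n = 3) and 49.3, 7.2 and 52.4 in knockout. It exceeded the array's median in 1 of 6 arrays, knockout 3.

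Ctdsp2 was lower in both mice of littermate pair 3 than in wildtype 1, wildtype 2 and knockout 1. On 1423660_at the signal was 159.3, 196.3 and 31.1 in wildtype 1, 2 and 3 and 139.0, 0.8 and 25.5 in knockout 1, 2 and 3. Knockout 2 aside, both littermates of pair 3 were low and the other 3 arrays high. Pair 3 was likewise below these 3 arrays on 1423661_s_at, at 117.6, 172.8 and 42.8 in wildtype and 114.5, 20.3 and 46.2 in knockout. On 1451075_s_at, with a high signal on every array, the values were 1761.1, 2186.2 and 1128.0 in wildtype and 1434.9, 136.3 and 1042.9 in knockout. On the normalised log2 scale the SD over the wildtype arrays was 1.04, 0.63 and 0.33 on 1423660_at, 1423661_s_at and 1451075_s_at.

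**Figure D1:**
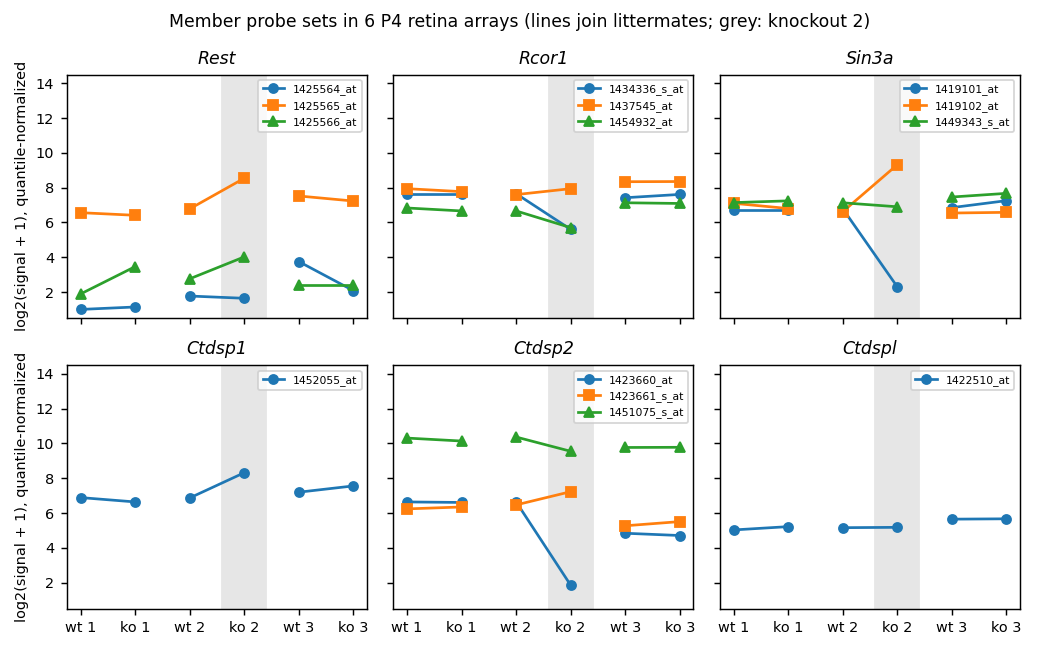
Quantile-normalised log2(signal + 1) of the 14 member probe sets in 6 arrays, 1 panel per gene, with lines joining littermates and knockout 2 shaded. The pair 3 arrays were lower than wildtype 1, wildtype 2 and knockout 1 on all 3 Ctdsp2 probe sets, and knockout 2 was lowest on 1419101_at and highest on 1419102_at of Sin3a.

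The normalised values kept the difference of Ctdsp2 between litters. On 1423660_at they were 6.64 in wildtype 1 and in wildtype 2 and 6.61 in knockout 1, against 4.84 in wildtype 3 and 4.71 in knockout 3. The mean of the pair 3 arrays was lower by 1.86 on the log2 scale, or 3.63-fold, and 0.483% of the 11603 probe sets tested (those exceeding the median of at least 3 of 6 arrays) had a lower value. This probe set exceeded the median on wildtype 1, wildtype 2 and knockout 1 only. It thus passed the filter only through the arrays where it was high, and the share is no support for the difference. The differences were -0.96 (1.95-fold lower) on 1423661_s_at and -0.50 (1.41-fold lower) on 1451075_s_at. This comparison was chosen after the values were seen and is a description without a test. Wildtype 2 was the only array of its pair used, and litter cannot be told apart from the handling of these arrays. The pair 3 arrays also had the lowest median signals of the 5 (57.0 and 51.4, against 68.5 to 95.6) and the highest Actb 3′ to 5′ ratios (1.56 and 1.47, against 1.38 to 1.45). Of 9 progenitor markers, 2 were lower in both pair 3 arrays than in the other 3 and 2 were higher. Of 10 amacrine and ganglion cell markers, 4 were lower and 4 higher. As deposited, Dkk3 had signals of 859.2 and 916.1 against 1848.2 to 2317.1, and Ccnd1 had 4213.7 and 4831.1 against 2980.4 to 3604.8. The summed normalised signal of the progenitor markers was 6464 to 8698 in pair 3 and 6794 to 8841 in the other 3. For endothelium and pericytes it was 864.3 to 932.6 against 957.7 to 1188, and the ranges of all other marker lists overlapped. The part of these in the Ctdsp2 values was not tested.

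The other members took the opposite side, or moved less. Rest 1425565_at was higher in pair 3 by 0.79 on the log2 scale (1.73-fold), Ctdsp1 by 0.58, and the Rcor1 probe sets 1437545_at and 1454932_at by 0.57 and 0.39. Sin3a had 0.29 and 0.40 on 1419101_at and 1449343_s_at but -0.27 on 1419102_at, and Rcor1 1434336_s_at had -0.13. Both pair 3 arrays were below the other 3 on 5 of the 11 member probe sets tested and above them on 6, where 27.0% and 27.4% of all probe sets tested were. A separation of pair 3 was thus common on these arrays. Both below and lower by more than 1 on the log2 scale were 3.51% of all probe sets tested, and among the members Ctdsp2 1423660_at only. That probe set passed the filter only through the 3 arrays where it was high, so nothing is read from this share. Ctdspl, outside the filter, was higher by 0.52.

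**Figure D2:**
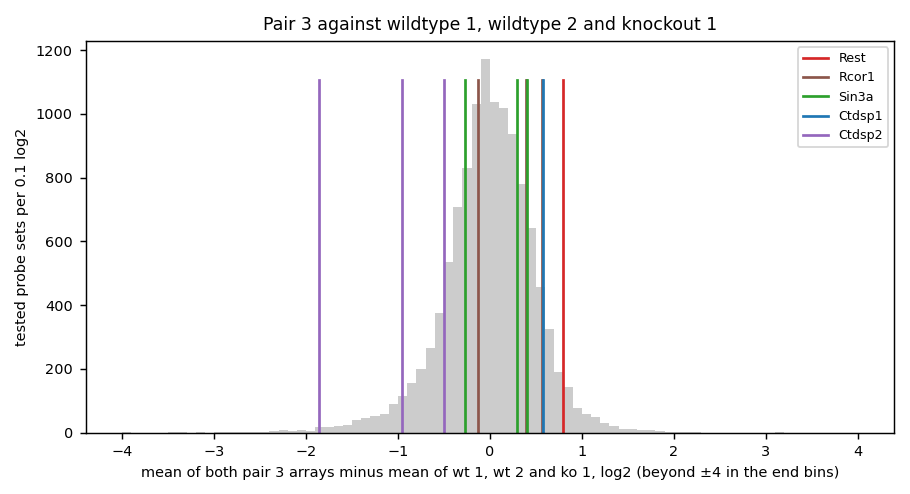
Histogram, over the 11603 probe sets tested, of the mean of both pair 3 arrays minus the mean of wildtype 1, wildtype 2 and knockout 1 (log2), with 1 coloured line per tested member probe set. Ctdsp2 lies at -1.86, -0.96 and -0.50, and Rest at 0.79.

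Over the 6 arrays, the probe sets whose normalised values followed Rest 1425565_at most closely were those of Marchf2, a ubiquitin ligase (Pearson's r = 0.999), the dynactin subunit Dctn2 (0.999) and Iffo1 (0.998). Without knockout 2 these were 0.996, 0.996 and 0.993 over 5 arrays. Among the members Ctdsp1 had r = 0.948 with Rest (0.808 without knockout 2) and Ctdsp2 1423660_at had -0.978 (-0.918 without it). Rcor1 1454932_at turned from -0.60 to 0.89 and Sin3a 1419102_at from 0.762 to -0.72 when knockout 2 was left out. These are descriptions over few arrays that share their normalisation, picked from the whole array, and knockout 2 is the array farthest from the rest.

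The comparison of knockout with wildtype asked whether loss of Nhlh2 goes with a change of these genes in the P4 retina. No member probe set passed the test, and knockout 2 set the sign of several differences. Of the 11 that passed the filter on low values, 0 had an adjusted p under 0.05 in limma with Benjamini-Hochberg adjustment, and 0 had an unadjusted p under 0.05. Over all 11603 probe sets 0 were called (0.0%), and 14 had an unadjusted p under 0.05. Without knockout 2, 0 of 11315 were called (0.0%), and 92 had an unadjusted p under 0.05.

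Rest 1425565_at was 6.56, 6.78 and 7.52 in wildtype and 6.41, 8.54 and 7.23 in knockout on the normalised log2 scale. Only knockout 2 lay above the wildtype range. The knockout minus wildtype difference was 0.44 (SE 0.60, 95% interval -1.03 to 1.91, limma adjusted p = 0.753), and without knockout 2 it was -0.14 (SE 0.39, -1.07 to 0.80, limma adjusted p = 1). For the dim Rest probe sets, which missed the filter, an exact two-sided permutation test gave p = 0.8 for 1425564_at and 0.2 for 1425566_at, where 3 arrays against 3 cannot go below 0.1. Their differences were -0.55 and 0.94, and -0.61 and 0.64 without knockout 2.

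The cofactors gave differences of both signs, the larger of which hung on knockout 2. Those of Rcor1 1437545_at and Sin3a 1449343_s_at were small and kept their sign without it. Sin3a 1419101_at had -1.36 (SE 1.29, -4.48 to 1.76) and 1419102_at had 0.81 (SE 0.76, -1.03 to 2.66), while 1449343_s_at had 0.02 (SE 0.32, -0.75 to 0.79). Without knockout 2 these became 0.21 (-0.31 to 0.72), -0.06 (-0.64 to 0.51) and 0.21 (-0.33 to 0.74). Rcor1 had -0.62 (-2.08 to 0.83) on 1434336_s_at, 0.06 (-0.75 to 0.86) on 1437545_at and -0.39 (-1.43 to 0.65) on 1454932_at. Without knockout 2 they were 0.05 (-0.37 to 0.47), 0.09 (-0.60 to 0.79) and -0.00 (-0.57 to 0.57).

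Among the phosphatases, Ctdsp2 1423660_at had the widest interval, at -1.66 (SE 1.24, -4.66 to 1.35) with all arrays and -0.41 (SE 0.80, -2.36 to 1.53) without knockout 2. Its other probe sets gave 0.37 (-0.97 to 1.72) and -0.33 (-1.11 to 0.45), and -0.06 (-1.17 to 1.04) and -0.18 (-0.76 to 0.41) without knockout 2. Ctdsp1 had 0.52 (-0.62 to 1.67), and 0.12 (-0.64 to 0.87) without it. Ctdspl, outside the filter, had 0.08 (exact two-sided permutation p = 0.5), and 0.18 without knockout 2. The limma adjusted p of the 11 probe sets ran from 0.742 to 0.977 with all arrays and was 1 for each without knockout 2. These intervals do not show that the genes are equal in both genotypes: without knockout 2 their limits lay within 1 on the log2 scale for Rcor1, Sin3a and Ctdsp1, and beyond it for Rest and 2 of 3 Ctdsp2 probe sets. With the littermate pair as a block as well, pairs 1 and 3 are left to set the difference. The limits then ran from -0.51 to 0.33 for Ctdsp2 1423660_at, from -0.23 to 0.61 for Ctdsp2 1423661_s_at and from -0.65 to 0.20 for Rest 1425565_at. All 11 lay within 1. The SEs of the 11 were nearly alike, at 0.175 to 0.213. So few arrays leave limma's variance mostly to the spread pooled over all probe sets, so these limits say little of each gene's own spread.

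**Figure D3:**
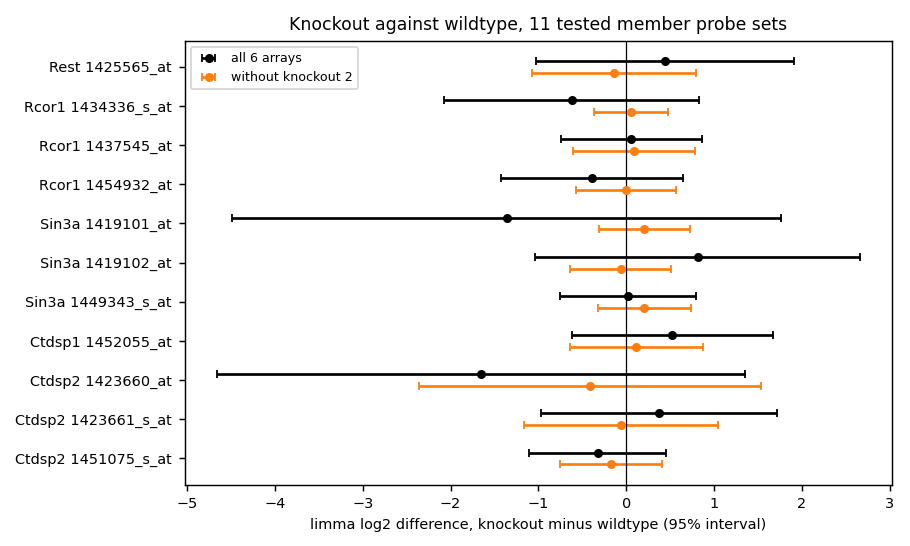
The limma log2 difference, knockout minus wildtype, with 95% intervals for the 11 member probe sets tested, with all 6 arrays (black) and without knockout 2 (orange). Every interval includes 0, and that of Sin3a 1419101_at narrows from -4.48 to 1.76 to -0.31 to 0.72.

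Within littermate pairs the tested members, like all probe sets tested, hardly moved in pairs 1 and 3 and moved widely in pair 2. Of the dim Rest probe sets, outside the filter, 1425566_at differed by 1.57 in pair 1 and 1425564_at by -1.67 in pair 3. The median size of the difference over the 11 tested member probe sets was 0.146 in pair 1, 1.45 in pair 2 and 0.186 in pair 3 on the log2 scale, where all probe sets tested had 0.141, 1.28 and 0.223. Knockout was the higher littermate on 2, 5 and 8 of the 11 in pairs 1, 2 and 3, where it was higher on 51.3%, 43.3% and 50.4% of all probe sets tested. Ctdsp2 1423660_at differed by -0.04, -4.79 and -0.13 in pairs 1, 2 and 3, so that its low signal in pair 3 was shared by both genotypes. Rest 1425565_at differed by -0.15, 1.76 and -0.29. Of the tested members only Ctdsp2 1423661_s_at was higher in the knockout in all 3 pairs (0.12, 0.76 and 0.24), and Ctdsp2 1423660_at and Rcor1 1454932_at were lower in all 3 (-0.17, -0.96 and -0.04 for the latter). Probe sets of Ctdsp2 thus went both ways. The share of all probe sets tested with the same sign in all 3 pairs was not counted, so nothing is read from these.

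Probe sets of the same gene parted in pair 2. The difference between knockout and wildtype was -4.48, 2.71 and -0.23 on the Sin3a probe sets, a span of 7.19, and -4.79, 0.76 and -0.82 on those of Ctdsp2, a span of 5.55. Rcor1 spanned 2.39. Over the 853 genes with at least 3 tested probe sets the median span was 3.22 in pair 2, and 3.4% spanned more than Sin3a and 17.7% more than Ctdsp2. In pairs 1 and 3 the median span was 0.35 and 0.59, and Sin3a had 0.40 and 0.36.

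**Figure D4:**
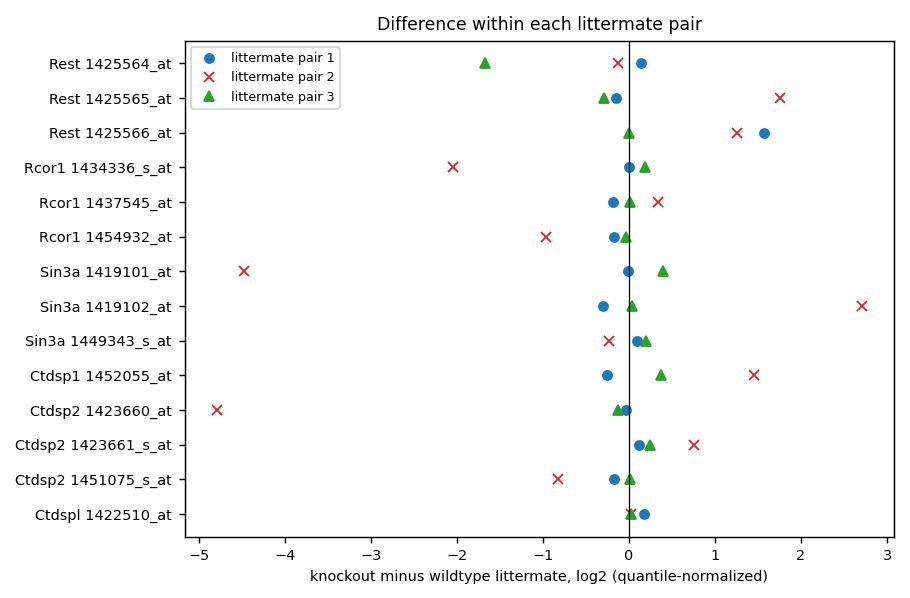
Knockout minus wildtype littermate (log2, quantile-normalised) of the 14 member probe sets in each of 3 littermate pairs. Pair 2 (crosses) ranges from -4.79 to 2.71, and the tested probe sets of pairs 1 and 3 lie between -0.30 and 0.40.

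The genes around the members were read from lists written from general knowledge, with 1 probe set per gene. None of their tested genes were called (limma adjusted p of 0.742 or more in the examples below). Of the REST complex partners, 16 of 19 measured were above the median of all 3 wildtype arrays, and 16 were tested with 0 called in either direction. Their median difference was -0.02, and 0.03 without knockout 2, where all tested probe sets had -0.12 and 0.00. The histone-binding proteins Rbbp4 and Rbbp7 stood highest, at the 98.5th and 97.0th percentile of wildtype, and Rcor3 and the demethylase Kdm5c lowest, at the 35.0th and 42.0th. Among the tested genes, Zmym3 (-1.53) and Sap30 (-0.86) had the lowest differences and Rcor2 (0.45) and Ing1 (0.40) the highest, and without knockout 2 they were 0.03, -0.04, 0.12 and 0.22.

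Relatives and substrates of the small phosphatases had 15 genes measured, of which 13 were tested with 0 called. The median difference was -0.16, and 0.01 without knockout 2. Smad4 and Ssu72 stood highest in wildtype, at the 97.8th and 93.2nd percentile, and Snai1 and Smad3 lowest, at the 16.9th and 32.7th. Among the tested genes the lowest differences were those of Smad2 (-1.45) and Rb1 (-0.77) and the highest those of Timm50 (0.50) and Polr2a (0.46), which were 0.10, -0.20, -0.04 and -0.11 without knockout 2.

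Of the REST-bound neuronal genes 44 were measured, 31 were above the median of all 3 wildtype arrays and 10 were below it in all 3. All 31 were tested, and 0 were called. Neurod1 and Snap25, a transcription factor and a synaptic vesicle fusion protein, stood at the 99.1st and 98.1st percentile, and the muscarinic receptor Chrm4 and the sodium channel Scn3a at the 6.7th and 9.5th. Their median difference was 0.11, and -0.07 without knockout 2. Among the tested genes Snap25 (-2.37) and Neurod1 (-0.85) were lowest and Cplx2 (0.92) and Cdk5r1 (0.67) highest, and without knockout 2 these were -0.10, -0.08, 0.01 and 0.32.

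Of textbook miR-124 targets 29 were measured and 19 tested, and of textbook miR-26 targets 14 and 9, with 0 called in both. The median difference was -0.13 and -0.29, and 0.04 and 0.06 without knockout 2. Among the tested genes of the miR-124 list Cd164 (-1.62), Ptbp2 (-1.06), Vamp3 (0.59) and Efnb1 (0.76) had the extreme differences, which were -0.18, -0.07, 0.10 and 0.44 without knockout 2. Among those of the miR-26 list Cdk8 (-1.56), Ccne2 (-1.02), Ccnd2 (0.54) and Gsk3b (0.59) did, and without knockout 2 they had -0.13, 0.12, 0.09 and 0.06. Neurod1 and Laptm4a (97.0th percentile) stood highest and Cebpa (12.3rd) and Ccl2 (15.1st) lowest among miR-124 targets. Ezh2 (93.6th) and Smad1 (85.7th) stood highest and Ptgs2 (7.5th) and Map3k2 (19.0th) lowest among miR-26 targets.

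**Figure D5:**
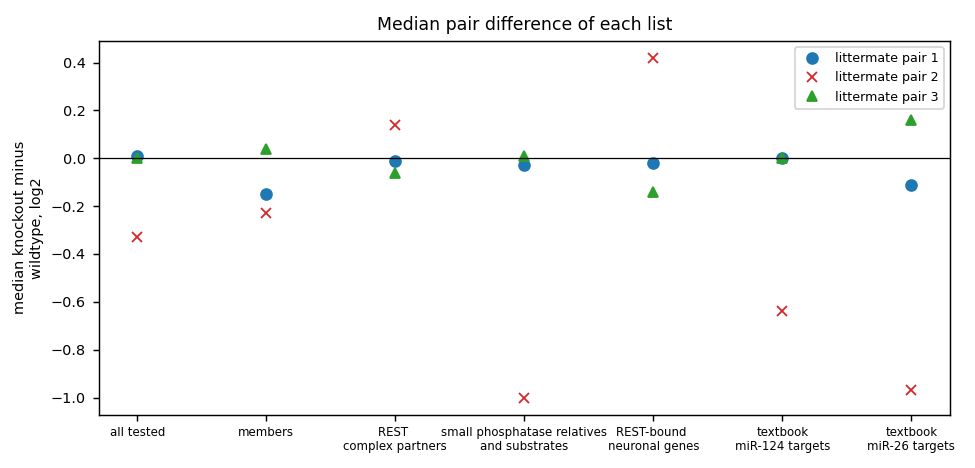
Median knockout minus wildtype difference (log2) within each littermate pair, over all probe sets tested, the 11 tested member probe sets and the tested genes of 5 lists. In pair 2 the medians run from -1.0 to 0.42, and in pairs 1 and 3 from -0.15 to 0.16.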

How the data were processed

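Total RNA from the retinas of 6 P4 mice was hybridised to 1 array each. The values that the authors deposited are intensities of single probe sets, computed with the Affymetrix MAS5 algorithm (per the labels) on a linear scale, with no common scaling between arrays. Control probe sets were left out of the 22626 used, of which 20380 were paired with 1 gene symbol. No depth applies to arrays, and their number limits the precision.

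Intensities were quantile-normalised as log2(signal + 1) and tested with limma 3.58.1 in R 4.3.3 (group only, 6 arrays) on 11603 probe sets, those exceeding the median of at least 3 of 6 arrays, with Benjamini-Hochberg adjustment at 0.05. The fit was checked on simulated arrays with the means and spread of the arrays other than knockout 2. The check does not cover the spread that knockout 2 adds. Members outside the filter had an exact permutation test. The series design names mice of 1 number as littermates. After group means were removed, r was 0.271, -0.164 and 0.126 in pairs 1, 2 and 3. Between wildtype and knockout arrays of different number it ran from -0.42 to 0.37. The littermates thus did not stand out in this check, but the knockout mean it removes includes knockout 2, so it says little of pairs 1 and 3. With knockout 2 aside, both pair 3 arrays lay below the other 3 on 27.0% of the probe sets tested and above them on 27.4%. The pairing rests on the design text. Named genes of a list are those called, otherwise the 2 highest and 2 lowest differences and wildtype percentiles. The members and lists were chosen with earlier results of these data known. Alternatives were other scalings, filters, constants, the pair as a block, an intensity trend and leaving out arrays.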

Additional observations from a re-analysis of the deposited data

How the results depend on the processing

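No probe set was called in the knockout comparison in limma under any of the 15 alternatives, so that the count stayed at 0 (lowest and highest 0 and 0 when single arrays were left out), with 3 to 539 at an unadjusted p under 0.05. With the littermate pair as a block it was 0 of 11603, with 15 at an unadjusted p under 0.05, and the block changed no other call. The member probe sets above the limit in all wildtype arrays numbered 3 with the 75th percentile in place of the median, and 9 to 11 when 1 wildtype array was left out.

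The sign of a member's difference changed in 31 of 210 refits. None had an adjusted p under 0.05, and refits in which a probe set missed the filter gave no p. Refits with no filter, a stricter filter, an intensity trend or the littermate block on all arrays left each member's difference unchanged. By design these could not change a sign, so the share of 210 understates how often the others did. The stricter filter left Ctdsp2 1423660_at and 1423661_s_at out of the test. On the signals as deposited, the median of all probe sets tested was -1.38. The differences that changed sign there were -0.89 for Rest 1425565_at, -1.29 for Rcor1 1437545_at, and -0.45 and -1.31 for Sin3a 1419102_at and 1449343_s_at. The others were -0.81 for Ctdsp1, -0.99 for Ctdsp2 1423661_s_at and -1.04 for Ctdspl. With centring on the 75th percentile Rest 1425564_at had 0.26. Without knockout 2 and with that centring, the values were -0.15 for Rest 1425565_at, 0.052 for Rcor1 1434336_s_at, 0.19 and -0.092 for Sin3a 1419101_at and 1419102_at and -0.12 for Ctdsp2 1423661_s_at. Without knockout 2 and with the littermate block they were -0.23 for Rest 1425565_at, 0.094 and -0.082 for Rcor1 1434336_s_at and 1437545_at, and 0.21 and -0.14 for Sin3a 1419101_at and 1419102_at. When 1 array at a time was left out, the difference ran from -1.11 to 0.23 for Rest 1425564_at, from -0.14 to 0.93 for Rest 1425565_at, from -0.96 to 0.053 for Rcor1 1434336_s_at, from -0.12 to 0.24 for Rcor1 1437545_at, from -2.24 to 0.21 for Sin3a 1419101_at, from -0.063 to 1.30 for Sin3a 1419102_at, from -0.18 to 0.21 for Sin3a 1449343_s_at, from -0.062 to 0.78 for Ctdsp2 1423661_s_at and from -0.078 to 0.26 for Ctdspl. The cause of these changes was not tested. Without wildtype 1, the array with lens signal, 2 of 14 member probe sets changed sign. With 3 arrays a group, small differences were not detectable.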
